A study of Danio rerio with 4 samples.

Results

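The genes described here encode the proteins of the mitochondrial ribosome. They were taken as every gene whose symbol starts with mrpl or mrps in the array's probe annotation or, after an update by accession, in RefSeq. The array held 69 such genes on 112 probes, among 13263 items tested, of which 9667 were named genes. By name, 43 encode large-subunit proteins (mrpl) and 26 small-subunit proteins (mrps). RefSeq lists 75 symbols of this form for zebrafish, and the other 6 were not analysed here. The updated symbol alone brought in 22 of the 69.

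Mitochondrial ribosomes translate the few proteins that the mitochondrial genome encodes, all of them core parts of the respiratory chain and the ATP synthase in vertebrates. Their ribosomal RNA comes from the mitochondrial genome, but every one of their proteins is encoded in the nucleus, made in the cytoplasm and imported. Part of these proteins descends from bacterial ribosomal proteins and part was added in the mitochondrial lineage. In humans, inherited loss of function of single members, such as MRPS7, MRPS16, MRPS22 or MRPL44, causes disorders of the respiratory chain.

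Whole zebrafish embryos of 2 kinds were compared. NHA9 embryos came from a cross of fish carrying spi1::lox-eGFP-lox::NHA9 with fish carrying hsp70::Cre, so that heat shock removes the eGFP cassette and puts NHA9 (NUP98-HOXA9, known from human myeloid leukaemia as an oncogenic fusion) under the spi1 promoter. For lGl embryos the floxed line was mated to AB wild-type fish instead, and the cassette stayed intact. Both kinds carried the floxed transgene, were heat-shocked at 37 °C for 1 hour at 24 hours post-fertilization, and gave RNA at 28 hours, 4 hours after the heat shock. The holding temperature was 28 °C for both. The hsp70::Cre parent was used for NHA9 embryos and not for lGl embryos. Effects of Cre, of the second parent and of the fusion gene cannot be told apart. The spi1 promoter is active in myeloid cells, a small share of the embryo, whereas mitochondrial ribosomal genes are used in nearly every cell, and RNA came from the whole animal. The number of embryos or clutches behind an extract is not given in the sources used here.

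The 4 arrays with 2 colours were read as 2 pairs of RNA extracts, with 2 extracts of each kind. Each pair has a forward array (NHA9 in Cy5) and a dye-swap array (lGl in Cy5) of the same replicate number. The 2 arrays of a pair were taken to share their RNA and count as 1 replicate. The labels give the replicate number and mark the dye swaps, and the sharing of extracts is inferred from that. Values are log2 ratios of the authors' deposited table. They are given as NHA9 over lGl, the likely direction from the titles and dyes of the forward arrays. Titles of the dye-swap arrays name lGl first. All 4 columns were still read as already turned to NHA9 over lGl, because forward and swap columns correlated positively over all items. That r was 0.80 in pair 1 and 0.53 in pair 2. Between the pairs, arrays of the same orientation correlated at 0.43 (forward) and 0.38 (swap) over all items. A forward array of 1 pair and the swap of the other correlated at 0.16 and 0.14. What repeated between the pairs thus went partly with the dye orientation, which is a limit of this reading. The direction and the log base are not stated in the sources used here. If the ratio runs the other way, every sign below turns, and if the columns were deposited as Cy5 over Cy3, the reading by dye given further on applies. A ratio carries no level, so neither expression levels nor the tissue makeup of the embryos can be read from it. In whole embryos, fewer cells of a type and less RNA per cell cannot be told apart.

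Of the 69 genes, 1 passed the test of the mean of the 2 pairs against 0, at an adjusted p under 0.05 in limma over all 13263 items. It was higher in NHA9 embryos, and 0 were lower. Over all items, 2.83% were called, 2.04% higher and 0.792% lower, so a count of 1 in 69 is close to the background. Without adjustment, 2 of the 69 had p under 0.05 in limma, against 10.4% of all items. What the genes had in common was a small negative ratio in the first pair of extracts: 54 of 69 were negative on both of its arrays, against 34.7% of all items, and 6 were positive on both, against 39.8%. The median of pair 1 was −0.25 over the members and 0.02 over all items. In the second pair, 20 of 69 were negative on both arrays, against 32% of all items, and 22 were positive on both, against 37.6%. The median of pair 2 was 0.02 over the members and 0.06 over all items.

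**Figure D1:**
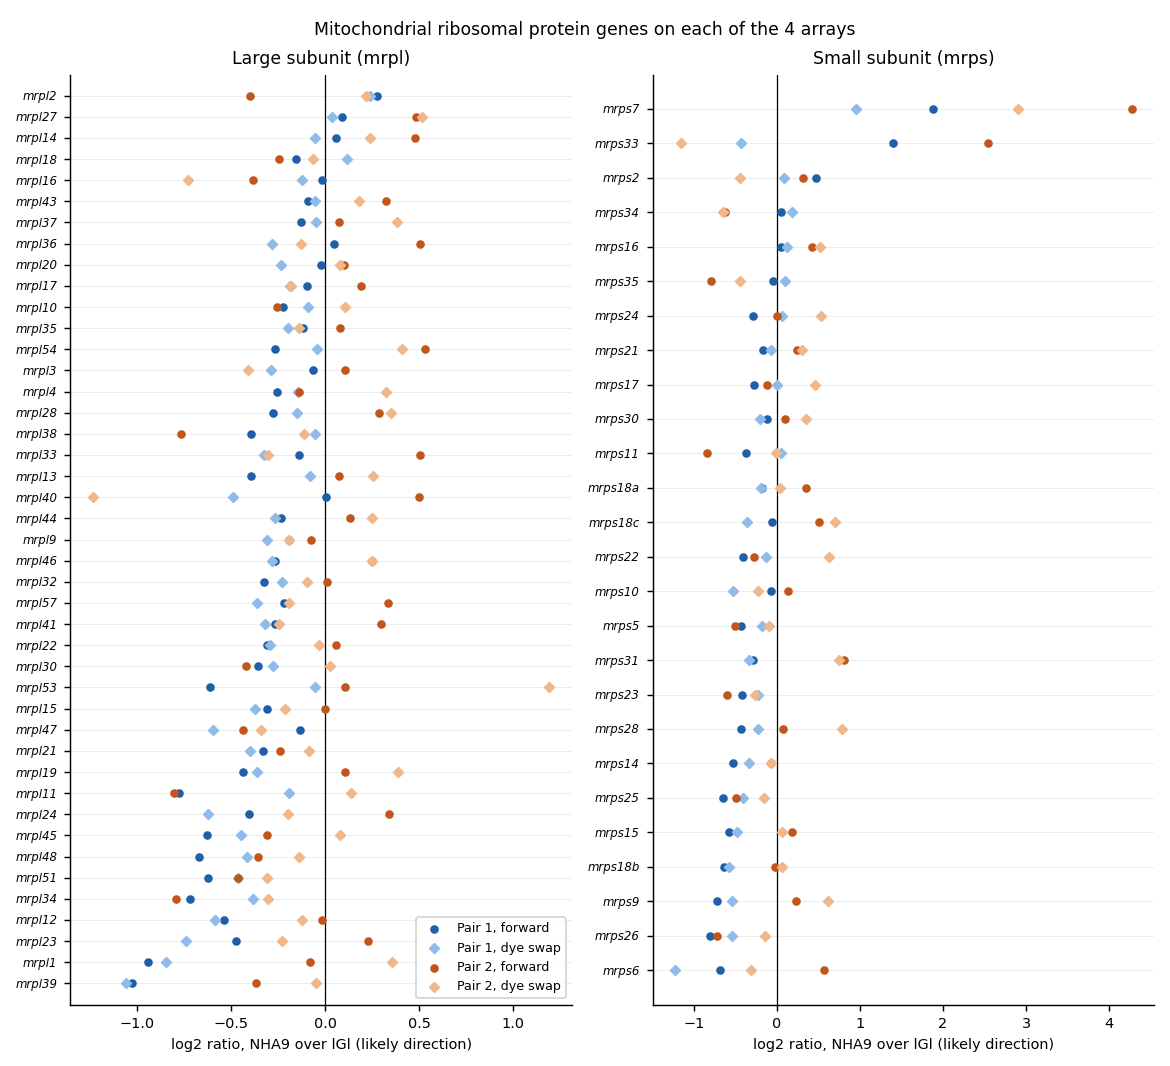
Log2 ratio of NHA9 over lGl (x axis) for each of the 69 mitochondrial ribosomal protein genes (y axis), large subunit left and small subunit right, sorted by the mean of pair 1, with 1 point per array and each gene averaged over its probes. Points of pair 1 (blue) lie left of 0 on both arrays for 54 genes, points of pair 2 (orange) lie on either side, and mrps7 lies right of 0 on all 4 arrays.

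The gene that passed was mrps7. It encodes uS7m, a protein of the small-subunit head, whose bacterial counterpart binds ribosomal RNA early in assembly of the head. Its single probe read 1.88 and 0.95 on the forward and dye-swap arrays of pair 1, and 4.27 and 2.90 on those of pair 2. All 4 values were positive, and both arrays of pair 2 lay above both of pair 1. The mean of the pairs was 2.50 ± 1.53 (SD, n = 2; limma adjusted p = 5.66e-14), a 5.66-fold ratio if the base is 2. That p-value rests on an SD of 0.43 pooled over all items, and not on the gene's own, larger SD of 1.53. The pairs differed by 2.17 ± 0.18 (SE; limma adjusted p = 9.34e-08 against the spread between arrays of the same extracts). The call rests on how the replicates enter the fit. With the pair as a random replicate block and no dye term, which estimates that arrays of a pair correlate at 0.49, the adjusted p of mrps7 was 0.128. Of 11 alternatives with a test, 10 kept the call, with adjusted p from 2.58e-18 to 0.0128. All 10 reuse the same 4 arrays, so their number adds no replication. With the median of probes and with platform symbols only, the value of this gene with 1 probe could not change. Among these 10 is the reading by dye (limma adjusted p = 0.000248), which is another contrast of the same arrays and not a repeat of this one. With the pair as a fixed replicate block and no dye term, 4 members were called: mrps7 higher (9.94% of all items) and mrpl34, mrpl39 and mrpl51 lower (7.98%). With a dye term in that block 5 were called higher (26.9%) and 27 lower (23.9%), and with the random block 0 were, against 0.671% of all items higher and 0.188% lower. The fixed blocks take arrays of the same RNA as their error. A single probe carries the value of mrps7, and the accession of that probe is not in the RefSeq table used here, so the name rests on the symbol alone.

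The nearest measured genes beside mrps7 in assembly GRCz12tu did not share its ratio. The gene mif4gdb, which directly follows it and encodes a relative of a translation initiation factor, was at −0.33, −0.09, −1.09 and −0.45 on the 4 arrays (forward and swap of pair 1, then of pair 2). Its mean of −0.49 did not pass (limma adjusted p = 0.64). On the other side, across 16 genes that have no value here, map2k4a, a kinase gene of the stress-activated JNK and p38 cascades, was at 0.38, 0.49, 0.11 and 0.18, with a mean of 0.29 (limma adjusted p = 0.866). Both neighbours lay below mrps7 on each of the 4 arrays.

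The second highest mean belonged to mrps33, a head protein of the small subunit without a bacterial counterpart, and its values went with the dye orientation. They were 1.40 on the forward array of pair 1 and 2.54 on that of pair 2, but −0.43 and −1.15 on the dye swaps. The sign thus turned with the dyes in both pairs, and the mean of 0.59 ± 0.15 (SD, n = 2; limma adjusted p = 0.478) is what remains after averaging. The third highest mean was 0.28, that of mrpl27, and 48 of the 69 means were negative, against 47.5% of all items.

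Genes were assigned to regions of the ribosome after their values were seen, not all members were assigned, and no difference between regions was tested. Among large-subunit proteins, the stalk and its base recruit translation factors. Negative on both arrays of pair 1 were 34.7% of all items, 37 of 43 large-subunit genes and all 3 measured genes of this region. Of these, mrpl11 (uL11m, at the stalk base) was at −0.78 and −0.19 in pair 1 and at −0.80 and 0.14 in pair 2, so its forward arrays were the low ones. The gene mrpl12 (bL12m, the stalk protein) was at −0.54 and −0.59 in pair 1 and at −0.02 and −0.13 in pair 2. In pair 2 its 2 probes read 0.51 and −0.54 on the forward array, then −0.32 and 0.07 on the swap. Opposite signs were thus averaged there. The gene mrpl10, whose product anchors the stalk protein, averaged −0.16 and −0.07 in the pairs. The mobile L1 stalk gene mrpl1 read −0.94 and −0.85 in pair 1, against −0.08 and 0.35 in pair 2. Its pairs did not overlap and differed by 1.03 ± 0.18 (SE; limma adjusted p = 0.000204 against array spread).

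Proteins around the peptidyl transferase centre, where peptide bonds form, were the region of the large subunit that stood nearest to 0 in pair 1, with a median of −0.002 over 4 genes. The gene mrpl2 was positive in pair 1, at 0.28 and 0.24, and at −0.40 and 0.22 in pair 2. For mrpl16 the values were −0.01 and −0.12 in pair 1, against −0.38 and −0.73 in pair 2, so pair 2 was the lower one, by −0.49 ± 0.18 (SE; limma adjusted p = 0.0305 against array spread). The gene mrpl27 was positive on all 4 arrays, at 0.09 and 0.04 in pair 1 and at 0.49 and 0.52 in pair 2. Its mean of 0.28 did not pass (limma adjusted p = 0.872), and mrpl3 averaged −0.18 and −0.15 in the pairs.

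At the polypeptide exit, where the growing chain leaves toward the inner membrane, all 6 measured genes were negative on both arrays of pair 1. So were 37 of the 43 large-subunit genes and 34.7% of all items. The median of the 6 genes was −0.44 in pair 1, against 0.00 in pair 2. Here mrpl45, the protein that tethers the ribosome to the membrane, was at −0.63 and −0.45 in pair 1 and at −0.31 and 0.08 in pair 2. The largest gap between pairs in this region was that of mrpl23, at −0.47 and −0.74 in pair 1 and at 0.23 and −0.23 in pair 2, a difference of 0.61 ± 0.17 (SE; limma adjusted p = 0.00923). Next came mrpl24, whose pairs differed by 0.59 ± 0.18 (limma adjusted p = 0.0128).

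The central protuberance, which faces the small subunit, had medians of −0.26 in pair 1 and −0.31 in pair 2 over 4 genes, negative in both. The gene mrpl48 was negative on all 4 arrays, at −0.67 and −0.42 in pair 1 and at −0.36 and −0.14 in pair 2, and all 3 of its probes had negative means. In contrast mrpl40, measured by 1 probe, followed the dyes, at 0.01 and −0.49 in pair 1 and at 0.50 and −1.24 in pair 2. It was negative on both swaps, and on forward arrays near 0 in pair 1 and positive in pair 2. For mrpl46 the values were −0.27 and −0.28 in pair 1, against 0.25 and 0.25 in pair 2, opposite in sign with arrays of a pair nearly equal.

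The lowest mean of any member was that of mrpl39, a large-subunit protein without a bacterial counterpart. It was at −1.03 and −1.06 in pair 1 and at −0.37 and −0.05 in pair 2. Its mean of −0.63 ± 0.59 (SD, n = 2) did not pass (limma adjusted p = 0.426). The ratio in pair 1, −1.05, was the only one among the 69 members to reach a 2-fold decrease in that pair, which 1.55% of all items did. Its 2 probes were at −0.84 and −1.25 in pair 1, both low, and at 0.08 and −0.49 in pair 2.

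Other large-subunit genes were negative on all 4 arrays with little difference between pairs. The gene mrpl34 (bL34m) averaged −0.55 in pair 1 and −0.55 in pair 2, and mrpl51 averaged −0.54 and −0.39. Neither mean passed (limma adjusted p = 0.533 and 0.682). In all, 16 of 69 members were negative on all 4 arrays, against 13.2% of all items, and 3 of 69 were positive on all 4 (mrpl27, mrps7 and mrps16), against 19.4%.

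The small-subunit platform binds messenger RNA near the exit side. Its gene mrps6 (bS6m) was at −0.69 and −1.22 in pair 1, the second lowest pair mean among members, and at 0.57 and −0.31 in pair 2. Its pairs did not overlap and differed by 1.08 ± 0.18 (SE; limma adjusted p = 0.000136 against array spread). For mrps11 (uS11m) the means of 3 probes lay within 0.05 of each other, and the gene was at −0.38 and 0.06 in pair 1 and at −0.84 and 0.00 in pair 2, low on forward arrays and near 0 on swaps.

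The head of the small subunit, which holds mrps7, had a median of −0.21 in pair 1 and of 0.35 in pair 2 over 8 genes. In it mrps31 was at −0.29 and −0.33 in pair 1, against 0.81 and 0.75 in pair 2, and mrps9 (uS9m) at −0.72 and −0.54, against 0.23 and 0.62. Both genes had opposite signs in the pairs on every array. The differences were 1.09 ± 0.17 (SE; limma adjusted p = 9.75e-05) for mrps31 and 1.06 ± 0.17 (limma adjusted p = 0.000144) for mrps9. The 2 probes of mrps31 gave alike values, −0.33 and −0.29 in pair 1 and 0.69 and 0.88 in pair 2. The gene mrps35, also of the head, went the other way, at −0.05 and 0.10 in pair 1 and at −0.80 and −0.44 in pair 2, a difference of −0.65 ± 0.17 (limma adjusted p = 0.00662).

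In the body of the small subunit, mrps26 was negative on all 4 arrays, at −0.80 and −0.54 in pair 1 and at −0.72 and −0.15 in pair 2, with a mean of −0.55 (limma adjusted p = 0.533). Likewise mrps25 was at −0.65 and −0.40, then −0.49 and −0.15, with a mean of −0.42 (limma adjusted p = 0.731). The gene mrps34 was at 0.05 and 0.19 in pair 1 and lower in pair 2, at −0.62 and −0.65. Its 2 probes differed in sign in pair 1, at −0.11 and 0.34, and were both negative in pair 2, at −0.51 and −0.76. Its difference between pairs of −0.75 ± 0.17 (SE; limma adjusted p = 0.00222) was the most negative of all members. The gene mrps2, between head and body, was at 0.47 and 0.09 in pair 1 and at 0.32 and −0.45 in pair 2, higher on the forward array of each pair.

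For mrps16 (bS16m) the 2 probes disagreed. One read 0.85 and 0.54 in pair 1 and 1.49 and 0.97 in pair 2, positive throughout. The other read −0.75 and −0.31 in pair 1 and −0.64 and 0.07 in pair 2. Both are assigned to the same accession, and the gene's mean of 0.28 averages probe means of 0.96 and −0.41. It was the only member whose probe means lay over 1 apart. Of the 35 members with several probes, 29 had probe means of a single sign in pair 1. The 4 probes of mrpl14 were not among those: 3 lay between −0.24 and −0.17 in pair 1 and 1 was at 0.62, and all 4 were positive in pair 2.

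Vertebrate mitochondrial ribosomes hold 3 homologues of the single bacterial protein bS18, and all 3 genes were measured (mrps18c alone is counted below as having a bacterial counterpart). The gene mrps18b was the low one in pair 1, at −0.64 and −0.58, and was at −0.02 and 0.07 in pair 2. In pair 1 mrps18c, the platform protein, was at −0.06 and −0.36, and in pair 2 at 0.50 and 0.70. For mrps18a, whose product sits in the large subunit despite its name, the values were −0.18 and −0.19 in pair 1 and 0.35 and 0.03 in pair 2. The 3 homologues thus all had pair 2 above pair 1 without overlap, but the difference passed against array spread for mrps18c (0.81 ± 0.18 SE; limma adjusted p = 0.00186) and mrps18b (0.63 ± 0.17; adjusted p = 0.00732) and not for mrps18a (0.38 ± 0.18; adjusted p = 0.0927). The gene mrps30 also encodes a protein of the large subunit, and averaged −0.16 in pair 1 and 0.22 in pair 2 over its 3 probes. These differed in sign in pair 1, at −0.27, 0.22 and −0.43, and were at 0.36, 0.21 and 0.10 in pair 2.

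In pair 1 the median was −0.25 for the 43 large-subunit genes and −0.24 for the 26 small-subunit genes. In pair 2 the medians were 0.00 and 0.15. Negative on both arrays of pair 1 were 37 of 43 large-subunit and 17 of 26 small-subunit genes. With mrps18a and mrps30 moved to the subunit they sit in, the medians were −0.25 over 45 genes and −0.28 over 24 in pair 1, and 0.005 and 0.13 in pair 2. The sign of the difference between the subunits' medians over both pairs turns with this choice: −0.13 for large and −0.07 for small by name, −0.11 and −0.14 by place in the structure. By name it also turns with platform symbols only (−0.14 for large and −0.20 for small), with each probe kept apart (−0.13 and −0.17) and with forward arrays alone (−0.14 and −0.19), so no order of the subunits is given. Genes with a bacterial counterpart had medians of −0.24 and 0.01 in the pairs (44 genes), and those without had −0.28 and 0.03 (25 genes). No difference between these classes was tested.

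**Figure D2:**
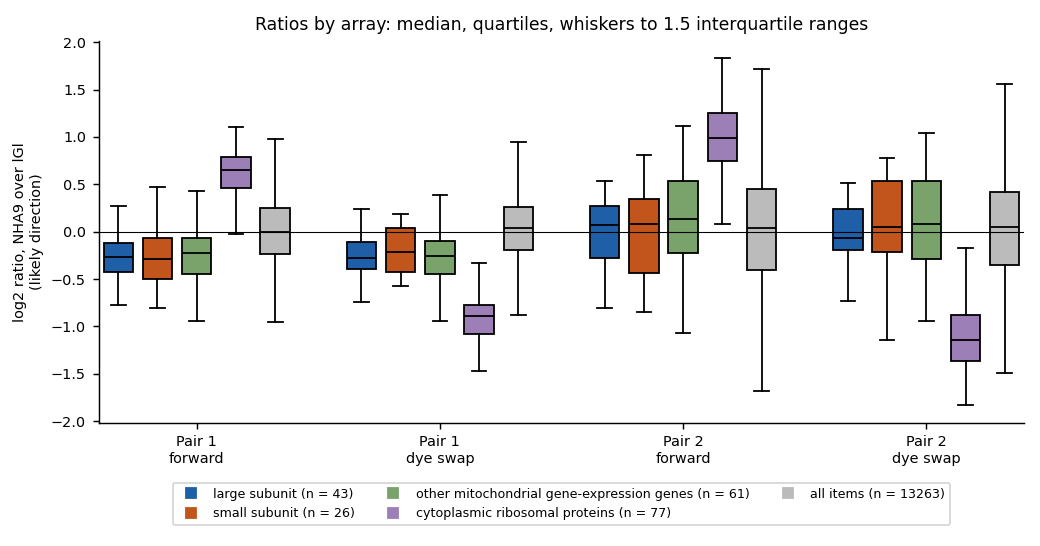
Log2 ratios of NHA9 over lGl on each array as boxes (median and quartiles, whiskers to 1.5 interquartile ranges) for large-subunit genes, small-subunit genes, other genes of mitochondrial gene expression, cytoplasmic ribosomal protein genes and all items. The medians of both subunits lie below 0 on both arrays of pair 1 and near 0 in pair 2, whereas cytoplasmic ribosomal protein genes are above 0 on forward arrays and below 0 on dye swaps.

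Where the 2 pairs of extracts did not overlap, pair 2 was the higher one for most of these genes. For 41 of 69, both arrays of pair 1 lay below both arrays of pair 2, against 31.4% of all items. The opposite order was seen for 4 of 69 (mrpl2, mrpl16, mrps34 and mrps35), against 29.7%. Opposite signs, negative on both arrays of pair 1 and positive on both of pair 2, were found in 18 of 69, against 11.3%. Tested against the spread between arrays of the same extracts, pair 2 was higher for 20 of 69 and lower for 3 of 69 (limma adjusted p under 0.05), where the shares over all items were 21.8% and 21.5%. These counts are 29.0% and 4.35% of the members. That fit treats arrays of the same RNA as its error, so a call says that the pairs differ beyond array error and nothing about other embryos.

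The size of the count with pair 2 higher rests on the scale of the arrays. Over all probes, the median absolute deviation was 0.255 and 0.242 on the forward and dye-swap arrays of pair 1. On those of pair 2 it was 0.46 and 0.406, so ratios in general spread wider in pair 2. With arrays scaled to a common spread, 47 of 69 members were called with pair 2 higher, against 29.1% of all items, and with quantile normalization 42 of 69, against 28.4%. The share of members negative on both arrays of pair 1 was 78.3% after quantile normalization, as it was without it, against 35.4% of all items. Scaling multiplies each array by a positive constant and can turn no sign, so it could not change that share. Probe by probe, 85 of 112 member probes were negative on both arrays of pair 1, against 35.1% of all probes. On both arrays of pair 2, 27 of 112 were, and the share over all probes is not given here.

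**Figure D3:**
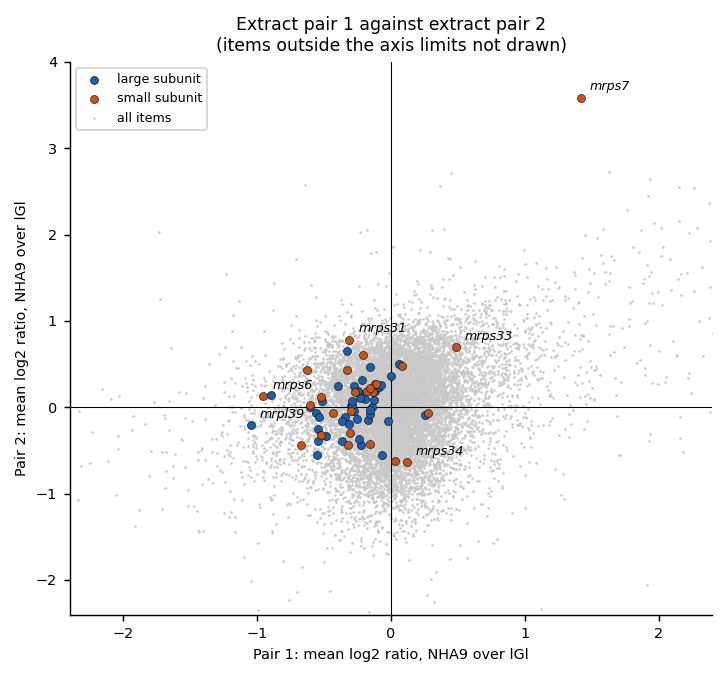
Mean log2 ratio of NHA9 over lGl in extract pair 1 (x axis) against extract pair 2 (y axis) for large-subunit genes, small-subunit genes and all items tested. Most members lie in a narrow band left of 0 on the x axis and on both sides of 0 on the y axis, with mrps7 at 1.42 and 3.59.

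Over the 69 members, arrays of the same extracts correlated at r = 0.62 in pair 1 and 0.45 in pair 2, and the means of the pairs at 0.58 (members are not independent, and arrays of a pair share RNA). Much of the last value came from mrps7 and mrps33. Over the other 67 members it was 0.10, against 0.34 over all items, from which no extremes were dropped. By rank (Spearman) the means of the pairs correlated at 0.19 over these 67, 0.26 over the 69 and 0.21 over all items. Over the 67, r between arrays of the same extracts was 0.63 in pair 1 and 0.26 in pair 2. The heat-inducible gene hsp70l was at −0.94 in pair 1 and 0.61 in pair 2, and hsp90aa1.2 at −0.75 and −0.14. Differences between the pairs were common: over all items, pair 2 was called higher for 21.8% and lower for 21.5%. The myeloid genes spi1a, spi1b, mpx, lyz, mpeg1.1 and lcp1 were positive on all 4 arrays, with mpx at 1.26 in pair 1 and 0.82 in pair 2 and spi1b at 0.36 and 0.55. The part of these genes in the ratios of mitochondrial ribosomal genes was not tested. Per the labels' protocols, samples low in RNA were amplified before labelling. Which extracts these were is not given in the sources used here.

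Read by dye, as if the columns were Cy5 over Cy3, the ratio of each gene is forward minus dye swap, divided by 2. In that reading the members had a median of −0.03, against −0.04 over all items, and the shift in pair 1 is no part of it, because both arrays of the pair moved the same way. Of the 69, 5 were called positive (limma, 9.85% of all items) and 4 negative (5.11%). The positive ones were mrps33 at 1.38 ± 0.66 (SD, n = 2; limma adjusted p = 1.41e-06), mrps7 at 0.57 ± 0.16 (adjusted p = 0.000248), mrpl40 at 0.56, mrps6 at 0.35 and mrps2 at 0.29. The negative ones were mrpl53 at −0.41, mrpl11 at −0.38, mrps11 at −0.32 and mrps22 at −0.29. The gene mrps7 was positive and past the threshold in both readings, but only 1 of the readings can be NHA9 over lGl. If the columns were already turned, its 0.57 measures the dye orientation, with the forward array higher in each pair. Of the others, mrpl53 was at −0.61 and −0.05 in pair 1 and at 0.11 and 1.19 in pair 2, and mrps22 at −0.41 and −0.14, then −0.27 and 0.63, higher on the dye swap of each pair.

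Cytoplasmic ribosomal protein genes, which encode the ribosomes of the cytosol, went with the dye orientation on the same arrays. Their 77 genes had medians of 0.65 and 0.99 on the forward arrays and of −0.89 and −1.15 on the dye swaps. In the reading by dye 73 of 77 were called positive, against 5 of 69 mitochondrial ones and 9.85% of all items. Negative on both arrays of pair 1 were 6 of 77, against 54 of 69 mitochondrial ones and 34.7% of all items. That count depends on the dyes, since the 2 arrays of a pair had opposite signs for most cytoplasmic genes. With both orientations averaged, pair 1 was negative for 66 of 77 cytoplasmic genes (median −0.14). The same held for 60 of 69 mitochondrial ones (median −0.25) and 47.3% of all items. The difference between the lists was not tested.

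**Figure D4:**
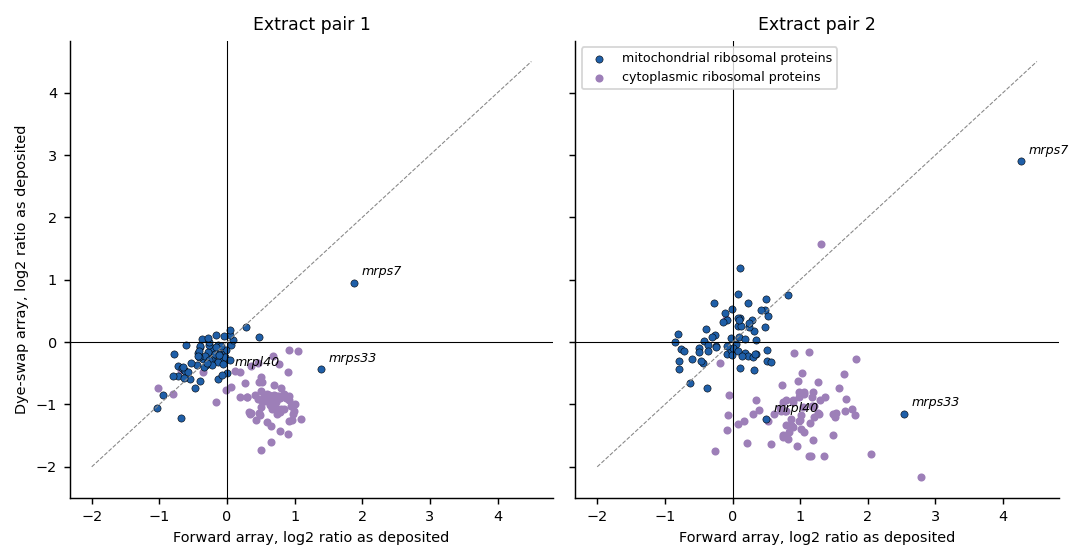
Deposited log2 ratio on the forward array (x axis) against the dye-swap array (y axis) for mitochondrial ribosomal protein genes and cytoplasmic ribosomal protein genes, pair 1 left and pair 2 right, with a dashed line of equal values. Mitochondrial genes lie mostly below 0 on both axes in pair 1 and spread to both sides of the line in pair 2, and most cytoplasmic genes lie at lower right, with mrps33 beside them at 2.54 and −1.15 in pair 2.

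Other nuclear genes serve mitochondrial gene expression. Of the 61 measured genes from 5 lists, 0 passed in either direction (limma on the mean of the pairs). Over all items 2.04% were called higher and 0.792% lower, so a count of 0 is close to the background. Medians of the 61 genes were −0.22 in pair 1 and 0.15 in pair 2. Negative on both arrays of pair 1 were 43 of 61, against 34.7% of all items, and both arrays of pair 1 lay below both of pair 2 in 36 of 61, against 31.4%. Pair 2 was called higher than pair 1 for 30 of 61, against 21.8% of all items, and lower for 4 of 61, against 21.5%.

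Of 5 further mitoribosomal proteins whose symbols do not start with mrp, all had negative means in pair 1, against 47.3% of all items. The gene ptcd3, a small-subunit protein of the messenger RNA entry site, was at −0.73 and −0.20 in pair 1 and at 0.46 and 0.75 in pair 2. The lowest mean was that of chchd1 at −0.48, negative on all 4 arrays, and the highest that of ptcd3 at 0.07. Among 16 assembly factors, the GTPase gene noa1 had the lowest mean at −0.83 (limma adjusted p = 0.138) and the rRNA dimethyltransferase gene tfb1m the highest at 0.49. In noa1 pair 2 was the lower one, at −1.19, against −0.46 in pair 1. Among 12 translation factors, the peptide deformylase gene pdf was lowest at −0.76 (adjusted p = 0.203) and the ribosome recycling factor gene gfm2 highest at 0.47.

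Mitochondrial aminoacyl-tRNA synthetases charge the transfer RNAs that these ribosomes use. Of 14 such genes and partners, 11 were negative on both arrays of pair 1, against 34.7% of all items. Their means ranged from lars2, the leucine enzyme, at −0.42 to gars1, the glycine enzyme of cytosol and mitochondria, at 0.33. In gars1 the values were −0.38 and −0.10 in pair 1 and 0.85 and 0.95 in pair 2. Among 14 genes of mitochondrial transcription and RNA processing, pair 2 was called higher for 9, against 21.8% of all items, and lower for 1, against 21.5%. The lowest mean of all 61 genes was here, fastkd1 at −0.93 ± 0.20 (SD, n = 2; limma adjusted p = 0.0637), negative on all 4 arrays between −1.12 and −0.63. The highest in this list was elac2, which trims the ends of mitochondrial transfer RNAs, at 0.39.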

How the data were processed

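The values are the authors' deposited log2 ratios of both channels of each array, 20406 probes on 4 arrays, with log base, direction, background correction, normalization and scanner not given in the sources used here. Base 2 was assumed, as the deposited values reach from −7.98 to 6.75. A natural log is possible. Spot signals were not used. The number of extract pairs (n = 2) limits the precision of the means. Probes were named through the platform annotation, updated by RefSeq accession, symbol or synonym (16810 named, 3596 unnamed). Of the 112 member probes, 96 matched by accession, 10 by symbol and 6 by synonym. Probes of a gene were averaged, and unnamed probes were kept as single items.

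The labels give each array a replicate number and mark the dye swaps. Arrays of the same number were taken to share an NHA9 and an lGl extract, and both dye orientations were averaged (n = 2). The mean was tested against 0 with limma 3.58.1 in R 4.3.3, with Benjamini-Hochberg adjustment over 13263 items. limma pooled the spread fully (SD 0.43), so the 95% interval of each mean is ±0.59 and the smallest called ratio was 0.96. The pair difference was fitted on 4 arrays with orientation as a term. The fits were tested on simulated data. Named members were each member past the threshold, the 8 highest and 8 lowest means, the extremes of pair and orientation differences (6 and 4 at each end), members with probe means over 1 apart, the mrps18 genes and mrps30. Others named as examples of a region were chosen after their values were seen. Regions follow textbook knowledge and were assigned after the values were seen. Members and lists were chosen with earlier results of these data known. p-values of the mean of pairs measure the spread between these extracts pooled over all items, and not the spread of the single gene. Those of the pair difference and of the fixed blocks measure the spread between arrays of the same RNA.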

Additional observations from a re-analysis of the deposited data

How the results depend on the processing

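Called items numbered 376 on the mean of pairs. They were 6734 with the pair as a fixed replicate block and a dye term, 2376 when the dye term was dropped from that block, and 114 with a random replicate block (added after seeing the data). Scaling the arrays to a common spread gave 174. There were 617 with forward arrays alone and 1984 read by dye. Of the 69 members, 1 was called in the mean of pairs. With the fixed replicate block and a dye term 32 were, 27 lower and 5 higher, where 23.9% and 26.9% of all items were. That block takes arrays of the same RNA as its error. Without the dye term 4 were called, mrps7 higher (9.94% of all items) and mrpl34, mrpl39 and mrpl51 lower (7.98%). With the random block 0 were, against 0.671% of all items higher and 0.188% lower. With forward arrays alone 2 were called (mrps7 and mrps33), where 617 of 13263 items were. By dye 9 were called, 5 positive and 4 negative, against 9.85% and 5.11% of all items. Members called with pair 2 higher numbered 20, but 47 after scaling, 42 after quantile normalization and 33 of 112 with each probe kept apart (29.1%, 28.4% and 18.5% of all items). Those with pair 2 lower numbered 3, but 5 after scaling (30.5% of all items) and 5 after quantile normalization (26.6%). Leaving out a pair gave medians of −0.25 and 0.02 for all members, −0.25 and 0.00 for the large subunit and −0.24 and 0.15 for the small subunit, in each case the value of the remaining pair and with no test. Medians under the other settings moved by less than 1 SD between pairs, but that of the small subunit ranged from −0.20 (platform symbols only) to −0.07, over 1.5 times its size, and fell below that of the large subunit with platform symbols only, each probe kept apart and forward arrays alone. The cause of these changes was not tested. Of 367 single values of 29 named members, 315 were counted as the same, 28 gained a call and 1 lost it (mrps7, random block). Those counted as the same include values with a pair left out. These have no test, and some changed sign (mrpl1, −0.38 to 0.14). Another 23, of members not called in the mean of pairs, changed sign. Among these 23, mrpl40, mrpl53 and mrps6 were called with the opposite sign when read by dye (limma adjusted p = 0.00257, 0.00576 and 0.0125). Of the member called in the mean of pairs, 0 values changed sign. Without spot signals, how far each probe stood above background is unknown.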
